A study of Mus musculus with 743 samples.

Results

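Transcripts of 10 genes of the AP-1 and immediate-early group were followed in single Schwann cells (SCs), the glia of peripheral nerves. The 10 genes were *Fos*, *Fosb*, *Jun*, *Junb*, *Jund*, *Egr1*, *Egr3*, *Atf3*, *Ier2* and *Btg2*, out of the 25700 genes counted. They and the related gene lists below were chosen with earlier results of these data known. None of the 10 helped to sort the cells into the classes compared here. Their levels were compared between cycling, promyelinating and other SCs, and from cell to cell within each class.

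Sciatic nerves came from C57bl/6J mice at postnatal day 1. Single eYFP-positive cells were collected on 2 plates for Smart-seq2, which reads full-length transcripts without molecular identifiers. Cells of 1 male and 1 female mouse were pooled for each plate, which makes the plate the unit of replication (n = 2). All animals were of the genotype P0Cre-/+ : ReYFPTg/+ : βAct-DsRedTg/+, and no other genotype, age or treatment belongs to the comparison. The eYFP reporter is switched on by Cre under the P0 (myelin protein zero) promoter, so the sort takes cells in which this promoter is or was active. Nerves were minced and digested in a warm enzyme mix before sorting. The files hold no cells that escaped this digestion, so the state of a cell in the nerve and its response to isolation cannot be told apart.

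AP-1 is a transcription factor made of a Fos protein bound to a Jun protein, or of a pair of Jun proteins, through their leucine zippers. The genes of many of these proteins are immediate-early genes, which are transcribed within minutes of a growth factor, injury or stress signal without new protein synthesis, largely through MAP kinases, serum response factor and CREB. Their mRNAs are short-lived. The tissue dissociation used for single-cell work is known to induce them in many cell types. In SCs, c-Jun (*Jun*) is known as a factor of the immature and injured state that opposes myelination, while *Egr2*, a relative of *Egr1* and *Egr3*, drives it.

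The stretch upstream of the start site is shown for 5 of the 10 genes, because signal-responsive elements of immediate-early promoters commonly lie there. RefSeq promoters of the mouse build GRCm38.p6 matched 7 of the 10 genes by symbol. The RefSeq start lay 34706 bases from the GENCODE start of the gene for *Atf3* and 1210 bases for *Jund*, and these are not shown. Each sequence runs 5′ to 3′ on the strand of the gene, ends at the base before the RefSeq start and covers 200 bases, or 194 for *Fosb*, where the last bases lie in an annotated exon and were left out. They lie at chr12:85473690-85473889 (*Fos*, plus strand), chr7:19310052-19310245 (*Fosb*, minus strand), chr4:95052223-95052422 (*Jun*, minus strand), chr8:84978749-84978948 (*Junb*, minus strand) and chr1:134079156-134079355 (*Btg2*, minus strand). Capitals mark matches, on either strand, to TGACG, the core shared by binding sites of the CREB and ATF factors, and to TGANNTCA, the palindrome of which the full CREB site TGACGTCA is one form.
Fos: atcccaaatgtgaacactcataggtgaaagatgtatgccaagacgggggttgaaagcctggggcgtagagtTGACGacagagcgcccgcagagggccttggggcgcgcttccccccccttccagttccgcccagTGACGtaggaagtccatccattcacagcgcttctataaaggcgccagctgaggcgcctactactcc
Fosb: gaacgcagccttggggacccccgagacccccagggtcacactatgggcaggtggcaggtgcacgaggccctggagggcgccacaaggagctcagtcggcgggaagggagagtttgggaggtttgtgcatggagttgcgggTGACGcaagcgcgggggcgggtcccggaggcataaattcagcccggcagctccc
Jun: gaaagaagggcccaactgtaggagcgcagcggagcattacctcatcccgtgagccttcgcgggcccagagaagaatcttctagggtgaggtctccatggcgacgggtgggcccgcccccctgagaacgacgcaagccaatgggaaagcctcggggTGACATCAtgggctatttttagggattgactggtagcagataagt
Junb: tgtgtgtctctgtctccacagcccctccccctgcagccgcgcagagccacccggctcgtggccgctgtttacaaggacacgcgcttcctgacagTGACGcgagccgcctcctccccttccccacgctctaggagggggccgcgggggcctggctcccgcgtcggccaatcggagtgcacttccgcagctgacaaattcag
Btg2: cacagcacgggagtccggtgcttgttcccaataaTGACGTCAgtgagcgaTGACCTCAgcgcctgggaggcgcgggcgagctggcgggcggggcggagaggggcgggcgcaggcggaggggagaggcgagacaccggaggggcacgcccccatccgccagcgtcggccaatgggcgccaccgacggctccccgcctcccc

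TGACG or its complement lay in the window of 5 of the 7 matched genes (*Fos*, *Fosb*, *Junb*, *Atf3* and *Btg2*) and in 15.7% of all 32851 promoter windows of 200 bases. TGANNTCA lay in 3 of the 7 (*Jun*, *Jund* and *Btg2*) and in 10.2% of all windows, and the full TGACGTCA, which contains both of the other patterns, only in that of *Btg2* among the 7, against 1.47% of all. The counts include the windows of *Atf3* and *Jund*, whose starts are in doubt. The match in *Jun*, TGACATCA, lay 45 to 38 bases before the start. *Fos* held TGACG at 129 and at 66 bases before its start and a TATAAA box 33 bases before it, a sequence found on either strand in 9.96% of windows. TGANTCA, the classic AP-1 element, matched 0 of the 7 windows and 5.48% of all, and the CArG box of serum response factor matched 0 of 7 and 1.18%. These are matches of letters, not measured sites, and serum response elements further upstream lie outside the windows.

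Cells with at least 1500 detected genes were kept, which left 621 of 743 wells. A cell was called cycling where *Mki67* and *Top2a*, genes of dividing cells, together reached 50 CPM, that is 50 reads of every 1000000 in the cell. It was called promyelinating where it was not cycling and *Ncmap*, a gene of the myelin membrane, reached 50 CPM. Plate 1 held 53 cycling, 59 promyelinating and 175 other cells, and plate 2 held 57, 60 and 217. Counts were summed per class and plate into 6 sums of 45073128 to 172878954 reads. The sorted cells carried SC markers: *Sox10*, *S100b* and *Erbb3* together took 443 to 757 CPM in every sum. Summed endothelial markers stayed at or below 2.91 CPM, fibroblast markers at or below 36.7 CPM, immune markers at or below 20.7 CPM and mural markers at 24.8 to 56.8 CPM, with 0 reads for *Cdh5* and *Kdr*, *Pdgfra*, *Ptprc* and *Tyrobp*, and *Acta2* and *Rgs5*. A list of 12 myelination genes took 27925 and 27744 CPM in the promyelinating sums, against 5402 to 8304 CPM in the other 4. Markers of immature SCs (*Ngfr*, *L1cam*, *Ncam1*, *Sox2*, *Gap43*) took 171 and 187 CPM there, against 583 to 801 CPM elsewhere. The median promyelinating cell had 3690 detected genes on plate 1 and 3550 on plate 2, more than the other cells with 2775 and 2819.

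Across all kept cells the 10 genes differed widely in abundance. Scaled to the length of their exons, *Fos* led with 1690 ± 141 CPM per kilobase (SD over plates, n = 2). *Ier2* (168 ± 47.4), *Egr1* (134 ± 30.7), *Jun* (113 ± 17.2) and *Atf3* (110 ± 8.37 CPM per kilobase) formed the next group, and the plate values of neighbours in this order overlapped. *Btg2* followed at 64.2 ± 7.41, *Junb* at 30.9 ± 9.17 and *Egr3* at 22.7 ± 9.13 CPM per kilobase, the last pair again with overlapping plate values. *Fosb* (9.61 ± 0.589) and *Jund* (5.25 ± 1.26 CPM per kilobase) were lowest. *Fos* alone supplied 64.5 to 82.3% of all reads of the 10 genes in each class sum. Reads of a gene and of an overlapping antisense gene cannot be separated, since strand use in counting is not stated. This touches *Jun* (overlapped by *Junos*), *Junb* (*Prdx2*), *Jund* (*Gm11175*) and *Atf3* (*Gm24748*).

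The first comparison asked whether non-cycling SCs with *Ncmap* at 50 CPM or more differed in these 10 genes from the remaining non-cycling cells. They were lower in promyelinating cells: 6 of the 10 (*Fos*, *Jun*, *Egr1*, *Atf3*, *Ier2* and *Btg2*) fell, and 0 rose (edgeR's quasi-likelihood test, Benjamini-Hochberg adjusted p under 0.05 over 13292 genes). In the same direction, 1.29% of all genes tested were called. Because the 10 were chosen with earlier results of these data known, shares over all genes give a scale and no test of the group. The median log2 fold change of the 10 was -1.91, against -0.07 over all genes tested. In 9 of the 10, all but *Jund*, both promyelinating sums lay below both sums of other cells, as they did for 28.1% of all genes. Against cycling cells, 7 of the 10 fell and 0 rose, where 3.83% of all genes were called lower. There the same 9 genes lay apart, against 23.1% of all genes, and the median log2 fold change was -2.08 (all genes -0.02). These 2 comparisons share the promyelinating sums. In the plot of levels, the promyelinating points of 9 genes sit below those of both other classes.

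**Figure D1:**
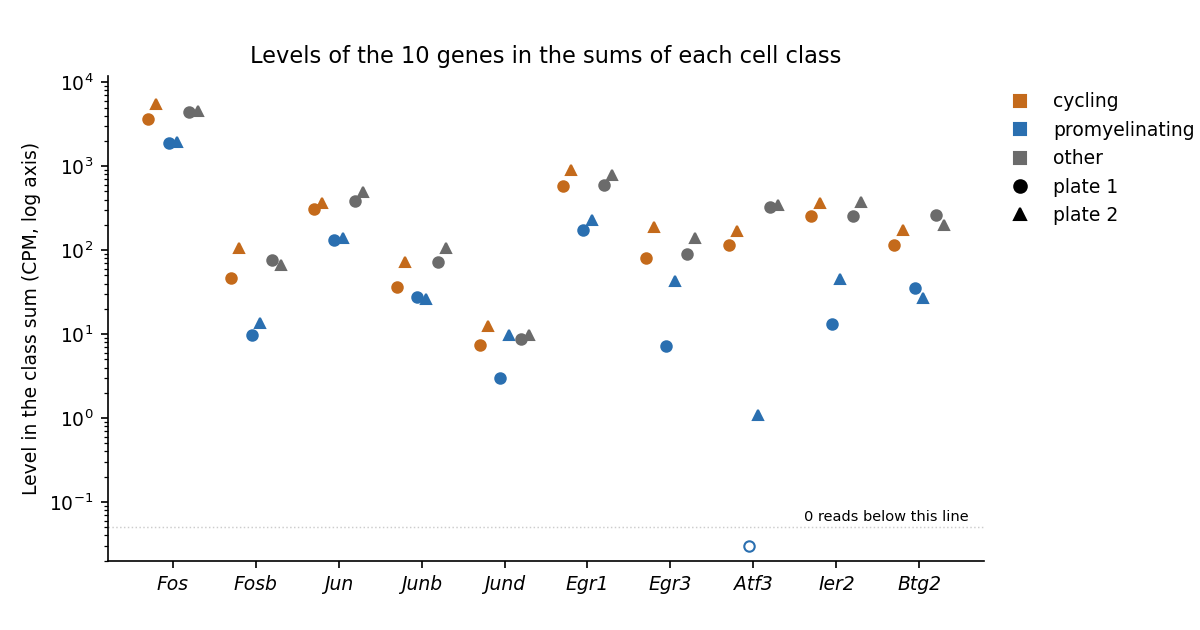
Level of each of the 10 genes (x axis) in the sum of each class and plate, in CPM on a log axis. Colours give the class, circles plate 1 and triangles plate 2, and the open circle is *Atf3* on plate 1 with 0 reads, drawn below the dotted line. Promyelinating values are lowest for every gene but *Jund*, whose promyelinating value on plate 2 (9.70 CPM) lies among the rest.

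**Figure D2:**
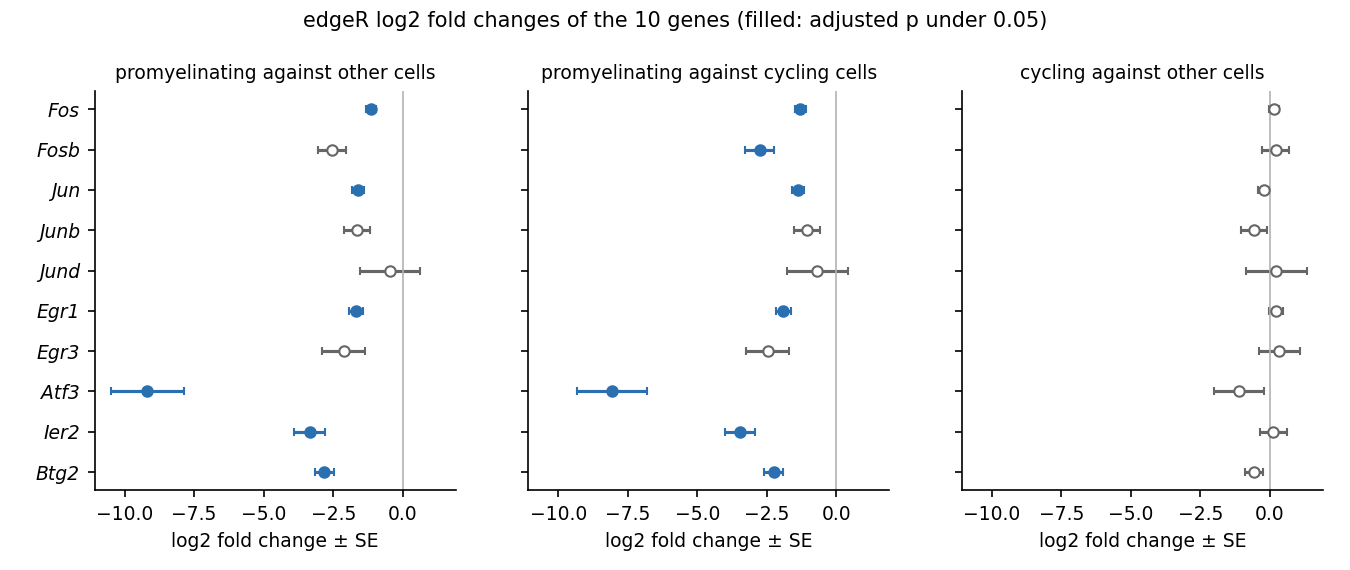
edgeR log2 fold change of each gene (x axis, bars are 1 SE) in 3 comparisons of class sums over 2 plates, filled where the adjusted p is under 0.05. Filled points number 6, 7 and 0 from left to right, and *Atf3* lies farthest from 0 in both comparisons with promyelinating cells.

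Of the Fos proteins, *Fos* encodes the classic partner of c-Jun, with which it binds DNA as a stable dimer. It took 1871 and 1961 CPM in promyelinating cells (plates 1 and 2), 4386 and 4560.5 CPM in other cells and 3623 and 5469 CPM in cycling cells. The promyelinating sums were lowest on both plates, while the cycling sums lay on either side of the other cells. The level fell 2.21-fold from other to promyelinating cells (log2 fold change -1.14 ± 0.18 SE, edgeR adjusted p = 0.01789) and was 2.45-fold lower than in cycling cells (edgeR adjusted p = 0.004748). *Fos* remained detectable in most promyelinating cells, 91.5% on plate 1 and 85% on plate 2, close to the 92.6% and 93.5% of other cells. Its median per cell was 1541 and 1120 CPM there, against 2971 and 3619 CPM in other cells, so that the lower sums came with lower levels per cell rather than with many cells lacking a read.

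*Fosb*, a close relative of *Fos*, took 9.76 and 13.4 CPM in promyelinating cells, 76.2 and 66.5 CPM in other cells and 46.6 and 105 CPM in cycling cells. Both promyelinating sums were below the other 4. The difference from other cells, a log2 fold change of -2.55 ± 0.52 SE, missed the threshold (edgeR adjusted p = 0.05322) and passed it with the plate as a block (edgeR adjusted p = 0.04777). Over 11 ways of processing the adjusted p ran from 6.08e-05 to 0.0851. Against cycling cells it fell by 2.75 on the log2 scale (edgeR adjusted p = 0.01978). Reads of *Fosb* came from few promyelinating cells, 8 on plate 1 and 11 on plate 2, and 3 cells held 71.9% and 77.0% of them.

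*Jun* encodes c-Jun, the Jun protein most studied in SCs. It took 132 and 139 CPM in promyelinating cells, 386 and 486 CPM in other cells and 313 and 365 CPM in cycling cells. The 3 classes did not overlap and the promyelinating sums were lowest. *Jun* fell 3.05-fold from other to promyelinating cells (log2 fold change -1.61 ± 0.22 SE, edgeR adjusted p = 0.00871) and was 2.59-fold lower than in cycling cells (edgeR adjusted p = 0.008153). It was detected in 61.0% and 58.3% of promyelinating cells, in 81.1% and 82.5% of other cells and in 86.8% and 87.7% of cycling cells.

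*Junb* and *Jund* encode the remaining Jun proteins. *Junb* took 27.5 and 26.5 CPM in promyelinating cells, 71.4 and 107 CPM in other cells and 36.9 and 73.2 CPM in cycling cells. The promyelinating sums were lowest, and the log2 fold change against other cells, -1.65 ± 0.47 SE, did not pass (edgeR adjusted p = 0.1825), although DESeq2 called it (adjusted p = 0.01645, the lowest of 11 settings that reached 0.1983). Against cycling cells it was -1.07 (edgeR adjusted p = 0.2467). *Jund*, which in most tissues is expressed steadily rather than induced, took 2.99 and 9.70 CPM in promyelinating cells, 8.64 and 9.83 CPM in other cells and 7.33 and 12.5 CPM in cycling cells. Its classes overlapped, and with a log2 fold change of -0.46 and an interval of 2 SE from -2.65 to 1.72 against other cells, a difference of several-fold in either direction was not detectable at this depth. The share of cells with a *Jund* read was 22.03% and 30% in promyelinating cells, 41.1% and 38.7% in other cells and 56.6% and 50.9% in cycling cells.

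*Egr1*, a zinc-finger factor induced beside *Fos* by the same kinases, took 174 and 231 CPM in promyelinating cells, 590 and 791 CPM in other cells and 583 and 893 CPM in cycling cells. Both promyelinating sums lay below the other 4. *Egr1* fell 3.22-fold from other to promyelinating cells (log2 fold change -1.69 ± 0.26 SE, edgeR adjusted p = 0.01615) and was 3.76-fold lower than in cycling cells (edgeR adjusted p = 0.004129).

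*Egr3*, a relative of *Egr1*, took 7.13 and 42.6 CPM in promyelinating cells, 90.6 and 139 CPM in other cells and 79.6 and 187 CPM in cycling cells. The promyelinating sums were lowest but lay far apart, and 3 cells held 87.6% of the *Egr3* reads of promyelinating cells on plate 2. Neither comparison passed in edgeR, with log2 fold changes of -2.13 ± 0.76 SE against other cells (adjusted p = 0.3198) and -2.47 ± 0.77 SE against cycling cells (adjusted p = 0.1174, and 0.0209 with the plate as a block). Over 11 settings the adjusted p ran from 0.01138 to 0.562 and from 0.003992 to 0.2734. *Egr3* was read in 11.9% and 15% of promyelinating cells, 60.6% and 63.6% of other cells and 84.9% and 73.7% of cycling cells. After thinning each cell to 50000 reads these shares were 8.33% and 14.04%, 50.9% and 55.3%, and 66.0% and 64.3%.

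*Atf3* encodes a leucine-zipper factor of the ATF/CREB family that is induced by stress and nerve injury. It had 0 reads in the 59 promyelinating cells of plate 1, where a limit of 3 reads lies at 0.0575 CPM. The 60 of plate 2 held 57 reads (1.09 CPM), all from 3 cells. Other cells took 328 and 344 CPM and cycling cells 116 and 168 CPM. *Atf3* was thus nearly undetected in promyelinating cells, and the level in other cells was about 5700-fold the 3-read limit on plate 1. This ratio is no bound on the difference, since reads of *Atf3* came from a minority of cells and such cells may have been missed. The fitted log2 fold changes of -9.18 ± 1.31 SE against other cells (edgeR adjusted p = 0.0108) and -8.07 ± 1.25 SE against cycling cells (edgeR adjusted p = 0.007464) depend on how the fit treats the 0 and are no bound. The ratio on plate 2 alone was -8.30 on the log2 scale against other cells and -7.27 against cycling cells. Without a filter on low counts both calls were lost (edgeR adjusted p = 0.2567 and 0.1595, the highest of 11 settings whose lowest were 0.0002835 and 0.0005405).

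*Atf3* was detected in a minority of cells even where it was abundant, 34.3% and 33.6% of other cells and 26.4% and 38.6% of cycling cells, at a median of 547 and 597 CPM in the other cells that had it. *Fos* was detected in 100% of the 60 *Atf3*-positive other cells of plate 1 and 98.6% of the 73 of plate 2, beside 92.6% and 93.5% of all other cells. In promyelinating cells the share was 0 of 59 on plate 1 (95% Clopper-Pearson interval up to 6.06%) and 3 of 60 on plate 2 (1.04 to 13.9%). Such intervals and limits cover counting error only, since Smart-seq2 reads are not independent molecules.

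*Ier2*, which encodes a small nuclear protein induced early by growth factors, took 13.1 and 44.9 CPM in promyelinating cells, 253 and 371 CPM in other cells and 254 and 367 CPM in cycling cells. Other and cycling cells were nearly level and both promyelinating sums lay far below. *Ier2* fell 10.2-fold from other to promyelinating cells (log2 fold change -3.35 ± 0.55 SE, edgeR adjusted p = 0.0196) and was 11.1-fold lower than in cycling cells (edgeR adjusted p = 0.008192). The size differed between plates, with log2 ratios to other cells of -4.28 on plate 1 and -3.05 on plate 2, and to cycling cells of -4.28 and -3.03.

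*Btg2* encodes an antiproliferative protein that recruits the mRNA deadenylation machinery. It took 35.5 and 26.7 CPM in promyelinating cells, 263 and 200 CPM in other cells and 116 and 171 CPM in cycling cells. The 3 classes did not overlap. *Btg2* fell 7.06-fold from other to promyelinating cells (log2 fold change -2.82 ± 0.35 SE, edgeR adjusted p = 0.005495) and was 4.77-fold lower than in cycling cells (edgeR adjusted p = 0.006368). Of its reads in promyelinating cells, 3 cells held 65.8% on plate 1 and 94.0% on plate 2. With cells of at least 2500 genes only, both calls of *Btg2* missed the threshold (edgeR adjusted p = 0.08097 and 0.05264, the highest of 11 settings whose lowest were 4.924e-13 and 5.266e-09).

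The second comparison set cycling against other cells. In it 0 of the 10 genes were called, against 1.01% of all genes in either direction. None of the 10 reached an unadjusted p of 0.05 in edgeR (0 of 10), and DESeq2 and limma also called 0. Log2 fold changes ran from -1.12 for *Atf3* to 0.34 for *Egr3*. The sums of *Jun*, *Atf3* and *Btg2* in cycling cells lay below those of other cells on both plates, and the remaining 7 genes overlapped. The share of all genes lying apart was not counted for this comparison. In the comparisons of promyelinating with other and with cycling cells, 28.1% and 23.1% of all genes lay apart downwards, so such a separation is common with 2 sums per class. The intervals of 2 SE bound the difference for abundant genes, -0.21 to 0.51 for *Fos*, -0.29 to 0.73 for *Egr1* and -0.66 to 0.19 for *Jun*. For *Btg2* the interval was -1.21 to 0.08. They were wide for *Atf3* (-2.94 to 0.71), *Egr3* (-1.13 to 1.80) and *Jund* (-1.96 to 2.40). A missed threshold does not show that cycling and other cells were alike in these genes.

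Cells of 1 class varied widely. The median other cell expressed 6 of the 10 genes and the median cycling cell 7, against 4 in promyelinating cells, on both plates. At least 7 of the 10 were detected in 44% and 48.8% of other cells, in 54.7% and 57.9% of cycling cells and in 6.78% and 8.33% of promyelinating cells. At most 3 were detected in 47.5% and 45% of promyelinating cells, against 16% and 15.7% of other cells and 7.55% and 19.3% of cycling cells. All 10 were found in 11 cells of plate 1 and 14 of plate 2, of which 0 were promyelinating, and none of the 10 in 5 and 7 cells. *Fos* and *Jun*, which can pair in AP-1, were detected together in 79.4% and 79.3% of other cells and in 54.2% and 53.3% of promyelinating cells. Such a joint share cannot exceed that of *Jun*, which was 81.1% and 82.5% in other cells and 61.0% and 58.3% in promyelinating cells.

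The mean of log2(CPM + 1) over the 10 genes gave each cell 1 value. Its median was 2.48 and 2.51 in promyelinating cells, 4.59 and 5.12 in other cells and 4.96 and 5.35 in cycling cells. The ranges overlapped: other cells ran from 0 to 9.96 on plate 1 and from 0 to 10.2 on plate 2, and promyelinating cells from 0.321 to 5.31 and from 0 to 6.79. Of the promyelinating cells, 93.2% and 93.3% lay below the median of the other cells of their plate, and 61.0% and 68.3% below the lower quartile. For cycling cells the shares below the median were 45.3% and 47.4%. Within a class and plate the value had a Spearman rho of -0.28 to 0.01 with the reads of a cell and of 0.12 to 0.43 with its detected genes. On plate 1 it also had a rho of 0.30 (other cells) and 0.31 (promyelinating cells) with the plate column, against 0.08 and -0.06 on plate 2. The part of depth and well position in the spread between cells was not tested.

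**Figure D3:**
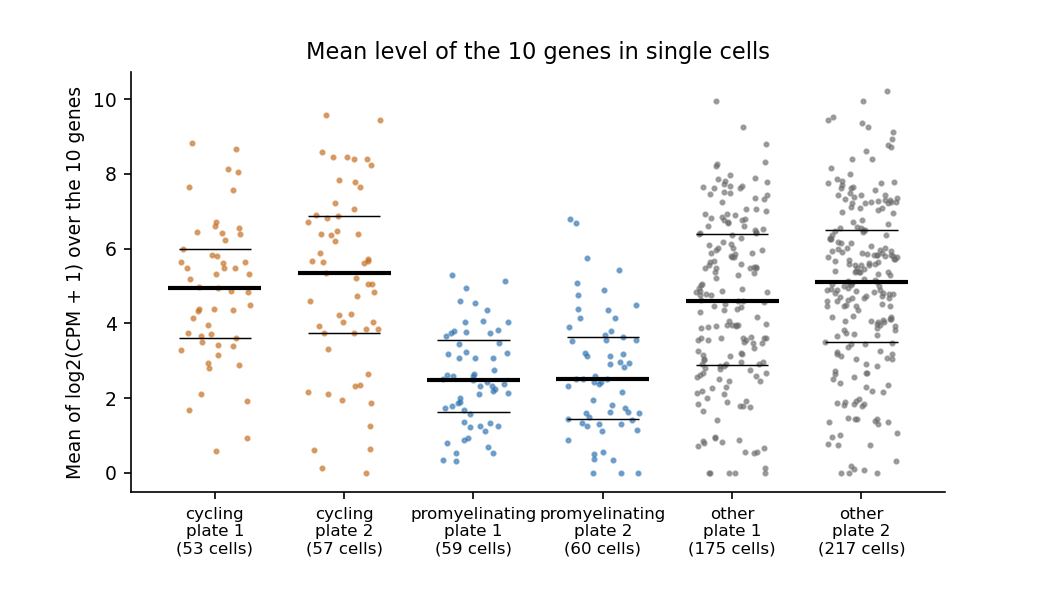
Mean of log2(CPM + 1) over the 10 genes (y axis) in each of the 621 cells, by class and plate. Thick lines are medians and thin lines quartiles: the promyelinating medians are 2.48 and 2.51 and those of the other classes 4.59 to 5.35, with cells near 0 in every class.

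Most pairs of the 10 genes varied together from cell to cell within a class, least so in promyelinating cells. The median Spearman rho over the 45 pairs was 0.305 and 0.337 in other cells (plates 1 and 2) and 0.243 and 0.388 in cycling cells. In promyelinating cells it was 0.117 over 36 pairs on plate 1, where *Atf3* had no reads, and 0.218 on plate 2. There 25 of 36 and 41 of 45 pairs lay above 0, with lowest values of -0.196 and -0.197. In the other classes 44 or 45 of the 45 pairs did. Over all pairs of the 4926 genes detected in at least 20% of kept cells on both plates, the median was 0.0119 to 0.0288. The cells of a stratum share mice, plate and handling, and few reads can hold rho down, so these are descriptions without a test.

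*Fos* and *Egr1* were the closest pair, with a mean rho of 0.658 over the 6 strata of class and plate and a range of 0.594 to 0.757. The pair was as close in promyelinating cells (0.638 and 0.653) as in other cells (0.594 and 0.644). *Fos* and *Ier2* followed at 0.535, *Fos* and *Jun* at 0.507 and *Egr1* and *Ier2* at 0.497. *Fos* had the highest median rho with the other 9 genes, 0.416, and *Jund* (0.185), *Egr3* (0.194) and *Fosb* (0.206) the lowest. *Egr3* and *Fosb* were nearly unrelated, at 0.0579. The 3 genes with the lowest values were also the 3 least abundant per length. The heat map shows this order as a dark corner of *Fos*, *Egr1* and *Ier2* and a pale edge.

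**Figure D4:**
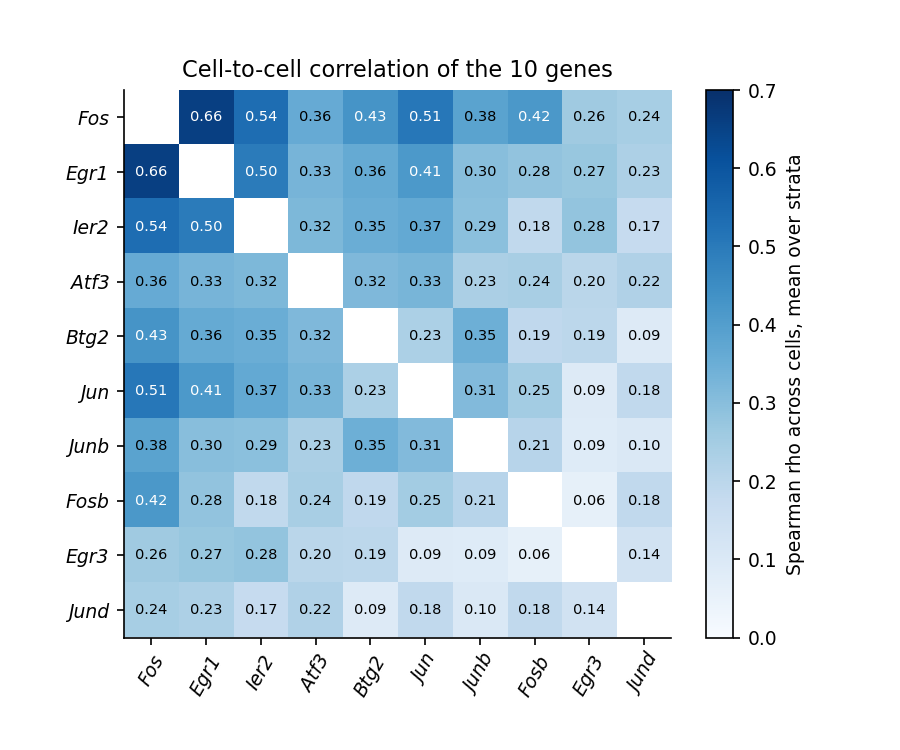
Spearman rho between each pair of the 10 genes across cells, as the mean over the 6 strata of class and plate (5 for *Atf3*), with genes ordered by their median rho with the other 9. Darker blue is a higher rho, from 0.66 for *Fos* and *Egr1* to 0.06 for *Fosb* and *Egr3*.

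Among 4912 genes outside the 10, those most like their mean across cells were *Socs3*, an inhibitor of cytokine signalling (mean rho 0.532 over the 6 strata), *Dusp1*, a phosphatase that switches off MAP kinases (0.447), *Ccn1*, a secreted matrix protein (0.434), *Nr4a1*, an orphan nuclear receptor (0.418), and *Klf6*, a zinc-finger factor (0.411). The median over genes was 0.0311. *Ccn1* ranged most between strata, from 0.0385 in promyelinating cells of plate 2 to 0.754 in cycling cells of plate 2. *Fos* alone was most like *Socs3* (0.495), *Dusp1* (0.432), *Nr4a1* (0.399), *Zfp36* (0.392) and *Cebpd* (0.382). *Jun* had *Dusp1* (0.392), *Socs3* (0.340), *Nr4a1* (0.288), *Klf6* (0.282) and *Gm10382* (0.279) as its nearest genes, and *Atf3* had *Socs3* (0.392), *Ccn1* (0.344), *Dusp1* (0.311), *Klf6* (0.299) and *Cebpd* (0.279), the last 5 over 5 strata.

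Genes around the 10 were followed in lists, shown as the plot of log2 fold changes by list. Of 27 other immediate-early genes 24 were tested, and from other to promyelinating cells 5 of them fell and 0 rose (median log2 fold change -1.15, all genes -0.07), where 1.29% of all genes were called lower and 0.497% higher. *Zfp36l1*, which promotes decay of AU-rich mRNAs, fell by 4.24 on the log2 scale (13.6 and 3.53 against 164 and 179 CPM, edgeR adjusted p = 0.01445). *Ccn1* fell by 3.25 (221 and 158 against 1535 and 2278 CPM, edgeR adjusted p = 0.001096), and *Socs3* fell by 3.19 (9.19 and 6.45 against 74.0 and 76.4 CPM, edgeR adjusted p = 0.01435). *Dusp1* fell by 2.46 (edgeR adjusted p = 0.004172) and *Klf6* fell by 1.52 (edgeR adjusted p = 0.03587). Their sums did not overlap between the 2 classes. *Nr4a1* at 295 and 447 against 723 and 796 CPM did not pass (edgeR adjusted p = 0.1528), nor did *Zfp36* at 2.57 and 11.7 against 35.8 and 86.2 CPM (edgeR adjusted p = 0.1504).

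Immediate-early genes did not all take the same direction. Against cycling cells, 2 of the 24 were higher in promyelinating cells, where 2.12% of all genes were called higher, and both are named because they were so few. *Egr2*, which drives myelination, took 333 and 307 against 58.7 and 95.7 CPM (log2 fold change 2.01, edgeR adjusted p = 0.005622), and *Nr4a2*, an orphan nuclear receptor, 164 and 229 against 50.9 and 58.4 CPM (log2 fold change 1.80, edgeR adjusted p = 0.01084). In the same comparison 6 fell, against 3.83% of all genes, among them *Zfp36l1* (-4.14), *Socs3* (-3.08), *Ccn1* (-2.97) and *Dusp1* (-2.30). Another was *Trib1*, a pseudokinase, with 0 reads in promyelinating and 797 in cycling cells (13.2 and 3.75 CPM, edgeR adjusted p = 0.0396). Against a floor of 3 reads over the class it was at least 299-fold higher in cycling cells, a limit that covers counting error only. Against other cells, which held 2383 reads of it, *Trib1* was not called (edgeR adjusted p = 0.0926). Within the Egr family, *Egr1* was therefore lower and *Egr2* higher in promyelinating than in cycling cells. Neither *Egr2* nor *Nr4a2* was called against other cells. These took 147 and 131 CPM of *Egr2* (edgeR adjusted p = 0.0805) and 137 and 172 CPM of *Nr4a2* (edgeR adjusted p = 0.6806). The *Nr4a2* sums of promyelinating and other cells overlapped.

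Of 10 other AP-1 proteins, 7 were tested and 0 were called against other cells, with a median log2 fold change of -1.11. Of 19 upstream kinases, factors and feedback genes, 1 fell, where 1.29% of all genes were called lower. It was *Spry2*, a feedback inhibitor of growth factor signalling, at 42.0 and 106 against 377 and 691 CPM (log2 fold change -2.77, edgeR adjusted p = 0.02829), while the median of the list was -0.28. Heat shock genes gave 0 edgeR calls among 10, with a median of 0.26. Their largest difference downwards was that of *Dnajb1*, a co-chaperone named after its values were seen, at 44.4 and 57.0 against 109 and 169 CPM (log2 fold change -1.37, edgeR adjusted p = 0.1184). At 1.79% of all genes called in either direction, 0 calls in lists of 7 or 10 genes do not set these lists apart from other genes. Of 10 genes tied to c-Jun in denervated SCs only 4 were tested, with a median of -4.23, or -4.02 with *Artn* at the bound that 0 promyelinating reads allow. *Ngfr*, a neurotrophin receptor of immature SCs, fell at 0.575 and 0 against 57.7 and 46.9 CPM (edgeR adjusted p = 0.04947). *Ngfr* was the only call among the 4, and their median lies between the unlike values of *Ngfr* (log2 fold change -7.42) and *Sox2* (-1.04). Against cycling cells *Ngfr* and *Sox2* fell, the latter at 11.2 and 11.5 against 48.9 and 91.2 CPM (log2 fold change -2.67, edgeR adjusted p = 0.02594), and so did *Spry2* (-2.47, edgeR adjusted p = 0.02202). In that comparison 3.83% of all genes were called lower. Cycling against other cells gave 0 calls in all 5 lists. With 1.01% of all genes called in either direction there, this does not set the lists apart from other genes.

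**Figure D5:**
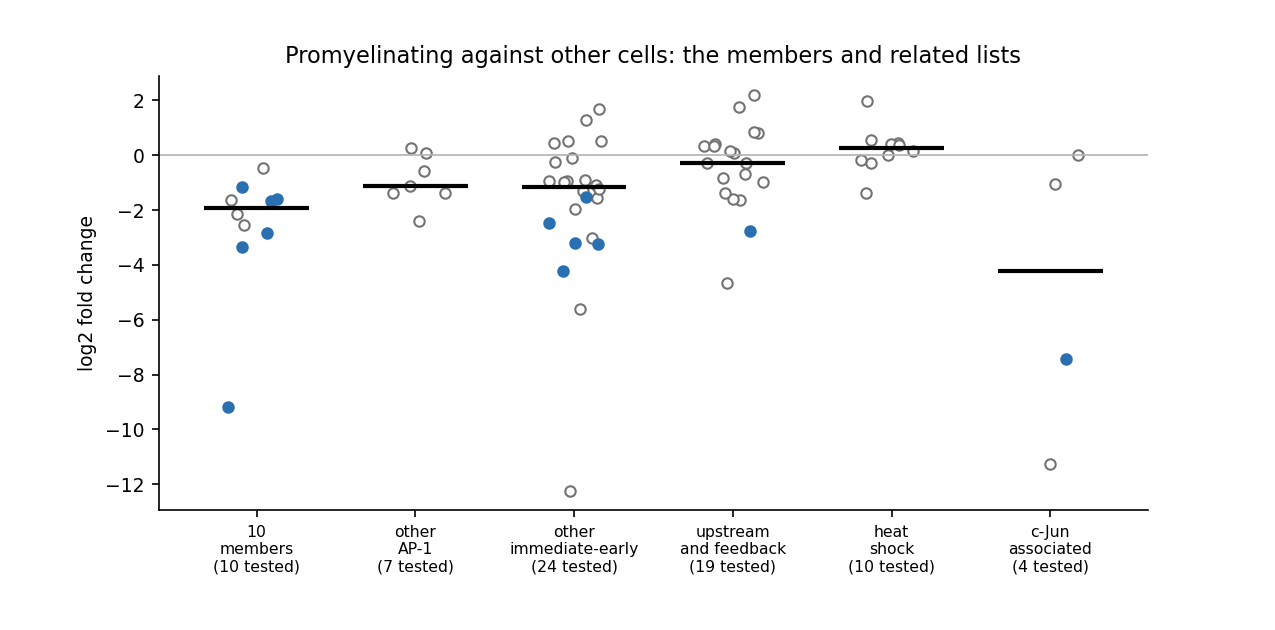
edgeR log2 fold change, promyelinating against other cells (y axis), of each tested gene of the 10 and of 5 related lists, filled where the adjusted p is under 0.05. Bars are medians, from -4.23 for the 4 tested c-Jun associated genes, over -1.91 for the 10 genes, to 0.26 for heat shock genes. Single c-Jun associated genes ran from -11.3 to 0.01. The points below -11 are *Trib1* and *Artn*, which had 0 promyelinating reads and whose values depend on the fit.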

How the data were processed

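Single SCs of mouse sciatic nerve at postnatal day 1 were analysed, 1 cell per well. What the authors deposited is a table of raw read counts, 1 value for each gene in each well, without normalisation. Per the labels, the authors used bcl2fastq, STAR 2.6.1c, featureCounts and the mouse build GRCm38.p5. The methods of the study name another STAR version and a human assembly, while every gene ID is a mouse one. The table held 25700 genes and 743 wells, and 0 columns were without a sample. Symbols, exon lengths and coordinates came from GENCODE M21, where 25587 IDs matched.

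The members and all gene lists were chosen with earlier results of these data known. Wells under 1500 detected genes (122) were left out, as in the study, and no doublet caller was run. Classes used *Mki67*, *Top2a* and *Ncmap* at 50 CPM. CPM was computed from the counts. Counts were summed per plate and class into 6 sums and tested in 1 fit with edgeR 4.0.16 (TMM, filterByExpr, robust quasi-likelihood test, Benjamini-Hochberg over 13292 genes, call at adjusted p under 0.05). An SE was computed as the size of the log2 fold change divided by the root of the F statistic. The steps were tested on simulated data. Named genes were the 10 members, up to 5 called genes per list and comparison, and the 5 genes most like the members, *Fos*, *Jun* or *Atf3* across cells. Intervals are 2 SE, or exact (Clopper-Pearson) for shares.

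The 3 sums of a plate come from the same mice. Their deviations from the class means went together, with r over 3705 genes of 0.105 (cycling and promyelinating), 0.204 (cycling and other) and 0.152 (promyelinating and other), so a block for the plate was among the alternatives. The rest were DESeq2 1.42.0, edgeR with relative log expression factors, no low-count filter, limma 3.58.1 on log2(mean CPM + 1), cells of at least 1000 or 2500 genes, classes at 20 or 100 CPM, thinning to 50000 reads, 5 reads for detection, other correlation measures, and each plate left out.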

Additional observations from a re-analysis of the deposited data

Results flagged for a closer look

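The wells left out for having under 1500 detected genes also held reads of the 10 genes. Per 1000000 reads, the 10 together took 3963 in the 83 wells of plate 1 and 4878 in the 39 wells of plate 2, which are data outside the comparisons. Reads were present for all 10 genes on plate 1 and for 8 on plate 2. A floor of 3 reads lay at 0.178 and 0.728 per 1000000. For comparison, the kept cells of the same plates took 5379 and 6315 per 1000000.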

How the results depend on the processing

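Of the 10 genes, 6 to 9 were called lower in promyelinating than in other cells, 6 to 8 against cycling cells, and 0 in cycling against other cells, over the edgeR fit and its 10 alternatives. All 10 log2 fold changes in both promyelinating comparisons stayed negative in every alternative. The replicate block called 7 of the 10 in promyelinating against other cells, 8 against cycling cells and 0 in cycling against other cells. It added *Fosb* against other cells (adjusted p = 0.04777) and *Egr3* against cycling cells (0.0209), and changed no other call of the 10. Values that changed sign all belong to cycling against other cells and were never called. With limma they were -0.095 for *Fos* and -0.045 for *Egr3*. Leaving out a plate gave the ranges -0.28 to 0.26 for *Fos*, -0.71 to 0.66 for *Fosb*, -0.24 to 0.34 for *Jund*, -0.018 to 0.176 for *Egr1*, -0.19 to 0.43 for *Egr3* and -0.014 to 0.0072 for *Ier2*. With 1 plate left these are ratios without a test.

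The number of all genes called moved more. Promyelinating against other cells gave 238 in edgeR, 1026 in DESeq2, 521 without a filter, 379 in limma and 415 after thinning. Cycling against other cells gave 134, 813, 317, 232 and 253. Promyelinating against cycling cells gave 791, 2329 in DESeq2, 1290 without a filter and 1343 in limma. The cause was not tested. The shares of cells with a read moved by more than the spread between plates in 50 of 120 recomputed values, but as means over the plates the promyelinating share stayed lowest for all 10 genes in all 5 settings. On plate 1 that of *Junb* was above that of other cells in 3 of the settings (67.8% against 65.1% of cells with at least 1500 genes and 1 read). The 12 median correlations recomputed with both plates moved by less than that spread.

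With 2 plates, genes of low count such as *Jund* carry wide errors. The p-values set differences between classes against the spread between 2 plates, each with its own pool of mice. That spread was shared over the classes and drawn towards the spread of other genes by edgeR. The p-values thus rest on more than the plates of each gene alone. Plate and pool cannot be told apart, and the main fit held no term for the plate.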
